A study of Mus musculus with 36 samples.

Results

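Myofibroblast and matrix crosslinking genes were followed in newborn and young mouse kidneys that carried mutations of Pkd1, of Pkhd1, of both genes or of neither. The 10 genes, out of 18049 in the deposited table, were taken by symbol: the contractile genes Acta2 and Tagln, the lysyl oxidases Lox, Loxl1 and Loxl2, the provisional matrix genes Tnc, Postn and Fn1, and the PDGF receptors Pdgfra and Pdgfrb. At P12 the mRNAs of Acta2, Tagln, Lox and Loxl1 were 1.77-fold to 1.97-fold higher in Digenic than in WT kidneys. In that comparison 12% of all tested genes were called higher and 11% lower. Each Digenic library of P12 had either a column header at odds with its label or adrenal transcripts. Pdgfrb was called lower, but that call was lost when any WT library was left out. Every library of both single mutants also lay below WT for Pdgfrb. Loxl2, the 3 provisional matrix genes and Pdgfra did not pass the test. At P0 and P3, and in either single mutant at any age, 0 of the 10 genes passed it. Few of all genes did so against WT there. The shares were 0.671% and 2.7% in Digenic kidneys at P0 and P3, and at most 0.267% in either single mutant.

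Whole kidneys of C57BL/6 mice were taken on the day of birth (postnatal day 0, P0) and on days 3 and 12 (P3, P12), and their RNA was sequenced in 36 libraries, 3 for each of 12 groups. The study asked how Pkhd1 and Pkd1 interact, and compared Digenic mice (Pkhd1-/- and Pkd1-RC/RC together), mice homozygous for Pkd1-RC/RC alone, Pkhd1-/- mice, and WT controls of the same strain and ages. Pkd1 encodes polycystin-1, and RC is a missense allele with reduced function. Pkhd1 encodes fibrocystin, and both genes are mutated in polycystic kidney disease. Both mutations are carried by every cell of the mouse, so no cell type was singled out. The titles give each library its own number, but the labels do not state that each came from a separate mouse. Most groups held libraries of both sexes by their counts, so they held more than 1 mouse, and p-values measure the spread between libraries. In bulk kidney RNA, more cells of a type and more RNA per cell cannot be told apart.

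Myofibroblasts are contractile stromal cells that appear in injured kidneys, arise from pericytes and fibroblasts, and deposit scar matrix. They assemble stress fibres of smooth muscle actin and secrete fibronectin, tenascin-C and periostin, which form a provisional matrix. Lysyl oxidases then crosslink collagen and elastin, which stiffens it. PDGF receptors mark the pericytes and fibroblasts of the kidney and drive their growth.

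Levels are given as TMM-scaled CPM per kilobase of gene length, so that genes can be set side by side. Changes are log2 fold changes ± SE from edgeR's quasi-likelihood test on the raw counts, with p-values adjusted by Benjamini-Hochberg over every gene of the comparison and calls made below 0.05. Library totals ran from 51411240 to 80789299 counts. Each of the 10 genes had at least 4282 counts in every library and passed the filter on low counts in every fit, which keeps counting error low, though in a few tight groups, such as Loxl1 in Digenic P12, the spread between libraries was nearly as small.

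Pkhd1 was low wherever its mutation was labelled. At P12 it stood at 1.32 to 2.29 in Digenic and at 1.34 to 1.42 in Pkhd1-/- kidneys, against 15.1 to 16.3 in Pkd1-RC/RC and 12.4 to 17.4 in WT kidneys. At P0 and P3 its level was 0.412 to 0.792 in all Digenic and Pkhd1-/- libraries, against 4.30 to 8.13 in all Pkd1-RC/RC and WT libraries. RC is a point allele, so the level of Pkd1 checks nothing. The column headers of 2 libraries go against the labels: Digenic P12 replicate 1 is headed P3, and Pkd1-RC/RC P12 replicate 2 is headed Pkhd1. The authors' deposited group means matched the labels' grouping within 1 count for all 18049 genes in all 12 groups. In Pkd1-RC/RC P12 replicate 2, Pkhd1 stood at 16.3. Wt1 ran from 3.63 to 6.42 in all libraries labelled P12, and from 12.6 to 19.3 in those labelled P3. Meis1 ran from 1.25 to 2.13 and from 3.42 to 5.82. Wt1 and Meis1 were named after their values were seen. In these genes both libraries were like others of their labels. Sex by Y-linked and Xist counts was 16 female and 20 male, and it matched 33 of 36 headers. At P3 all 3 Digenic libraries were female and all 3 Pkhd1-/- libraries male, and at P12 all 3 Pkd1-RC/RC libraries were male. Adrenal markers had a summed level of 10 or more in 9 libraries, among them Digenic P12 replicates 2 and 3 (42.02 and 60.8) and Pkhd1-/- P12 replicate 3 (78.0), against 1.32 to 1.45 in WT P12 kidneys. Markers of urothelium and ureter wall were high in WT P3 replicate 2 (170.7) and Pkhd1-/- P0 replicate 2 (210.1).

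**Figure D1:**
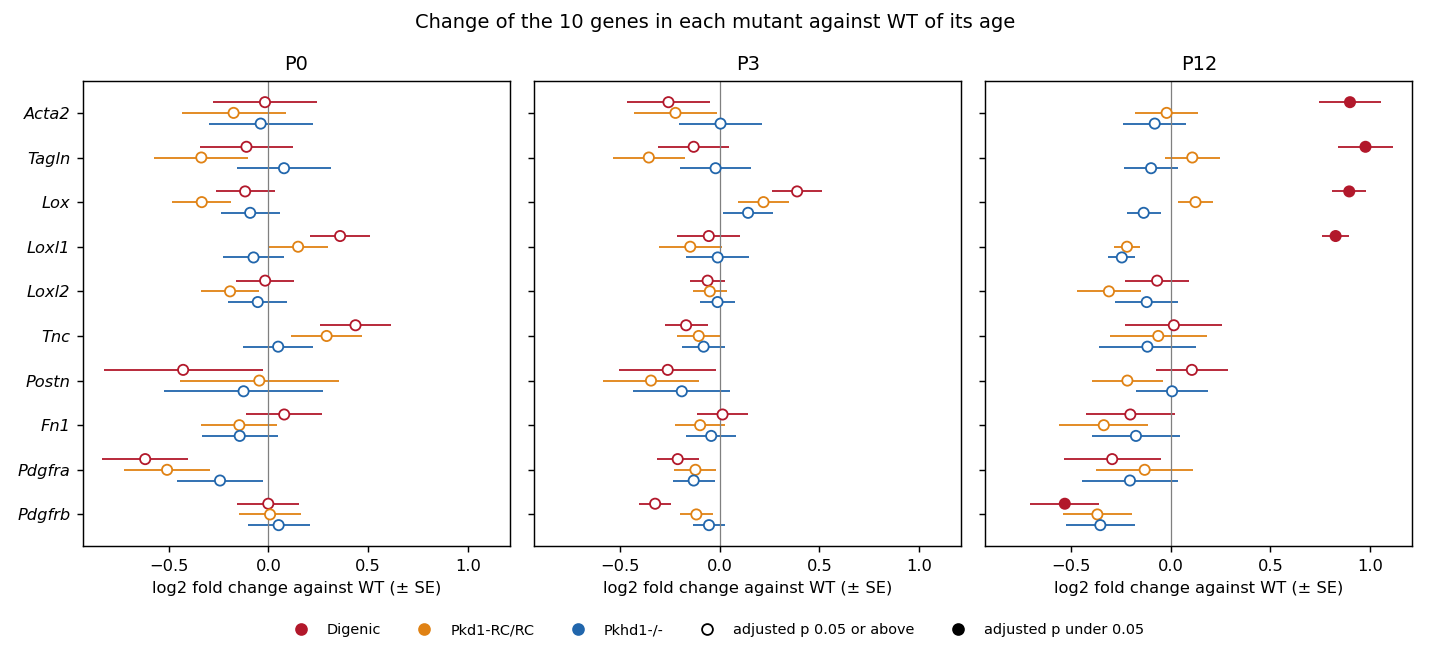
Log2 fold change (± SE, x axis) of each of the 10 genes (rows) in Digenic (red), Pkd1-RC/RC (orange) and Pkhd1-/- (blue) kidneys against WT kidneys at P0, P3 and P12, with filled points for an adjusted p under 0.05. Filled points appear only for Digenic kidneys at P12: Acta2 at 0.90, Tagln at 0.98, Lox at 0.89 and Loxl1 at 0.83 to the right, and Pdgfrb at -0.53 to the left.

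In Digenic against WT kidneys at P12, 5 of the 10 genes were called, 4 higher and 1 lower, where 23% of the 18002 tested genes were called, 12% higher and 11% lower. The median change of the 10 was 0.06, beside -0.01 over all genes tested. The other 5 had changes between -0.29 and 0.11.

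Acta2 (ENSMUSG00000035783, chr19:34241090-34255336, minus strand, mm10) encodes smooth muscle alpha-actin, the filament protein by which myofibroblasts are most often recognised. The 250 bases before a RefSeq start of Acta2 (GRCm38.p6, chr19:34255374-34255623, minus strand) are shown because serum response factor is known to drive this gene through CArG boxes, with capitals marking CArG-like sites.

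Acta2 promoter: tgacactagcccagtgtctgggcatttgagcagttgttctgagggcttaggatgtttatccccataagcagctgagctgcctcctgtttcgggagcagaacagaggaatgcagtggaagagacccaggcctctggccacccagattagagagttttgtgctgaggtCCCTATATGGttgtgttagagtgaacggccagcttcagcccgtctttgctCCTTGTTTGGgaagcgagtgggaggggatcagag

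A site was counted as CArG-like where the letters CCNNNNNNGG held at most 1 G or C among the 6 central bases, a pattern that reads alike on both strands. The sites CCCTATATGG and CCTTGTTTGG begin 84 and 34 bases before the start, and neither is a strict CArG box. Of 32851 RefSeq windows of this length, 8.59% held such a site, 0.67% held 2 or more and 1.47% held a strict box. The table held windows for 4 of the 10 genes, and those of Tnc, Postn and Pdgfra held 0 such sites. A match describes letters and does not show binding.

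At P12 Acta2 stood at 292, 426 and 278 in the 3 Digenic libraries, at 189, 172 and 164 in Pkd1-RC/RC, at 186, 160.4 and 159 in Pkhd1-/- and at 175, 207 and 152 in WT libraries. Each Digenic library lay above every library of the other genotypes, and the 3 other genotypes overlapped. The mean was 332 ± 81.9 in Digenic and 178 ± 27.9 in WT kidneys (SD, n = 3 each). The change against WT was 0.90 ± 0.158, a 1.86-fold rise (edgeR adjusted p = 0.00172). It held in all 14 alternatives, with values from 0.69 to 1.02 as each library was left out.

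At P0 Acta2 ran from 233 to 401 in Digenic and from 239.5 to 399 in WT kidneys, and at P3 from 257 to 271 in Digenic and from 236 to 452 in WT kidneys. The WT value of 452 is that of the P3 library with the high urothelium and ureter wall sum, and the highest P0 value, 444, is that of the Pkhd1-/- library with the other high sum. The part of these sums in the levels of Acta2 was not tested. In the order of the 12 group means, Digenic P12 stood at the top with 332, next to WT P0 at 330.0, and the WT, Pkd1-RC/RC and Pkhd1-/- groups of P12 formed the bottom with 178, 175 and 168. Neighbours in this order overlapped in their libraries in 10 of 11 cases. The exception was the step between Digenic P3 (266) and WT P12.

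Tagln (ENSMUSG00000032085, chr9:45929628-45936058, minus strand) encodes transgelin, an actin-binding protein of smooth muscle. At P12 its level was 177, 232 and 153 in Digenic, 113, 99.4 and 94.2 in Pkd1-RC/RC, 99.4, 82.8 and 84.2 in Pkhd1-/- and 92.4, 104 and 88.2 in WT libraries. Again each Digenic library exceeded all 9 others of that age. The change against WT was 0.98 ± 0.138, a 1.97-fold rise (edgeR adjusted p = 0.000469), and it was called in 14 of 14 alternatives. After the mean of each age was taken off, the log2 levels of Tagln and Acta2 across the 36 libraries correlated with r = 0.918, as a description of libraries that share their RNA.

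**Figure D2:**
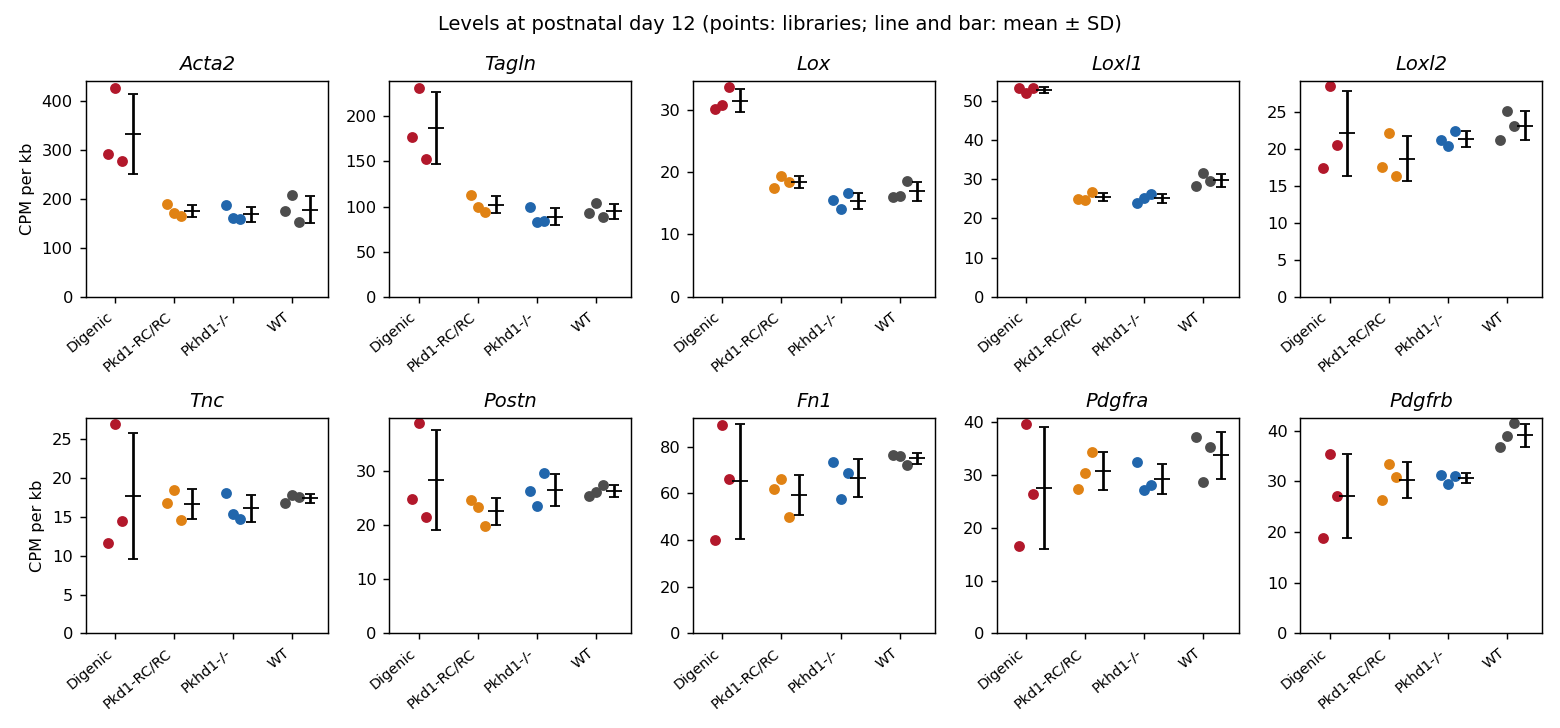
Level of each of the 10 genes at P12 (TMM-scaled CPM per kilobase, y axes from 0) in every library of Digenic, Pkd1-RC/RC, Pkhd1-/- and WT kidneys, with the mean ± SD of 3 libraries beside the points. The Digenic points of Acta2, Tagln, Lox and Loxl1 lie above all others, while in the remaining genes Digenic libraries spread most widely, as in Fn1 from 40.1 to 89.4.

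Lox (ENSMUSG00000024529, chr18:52516069-52529867, minus strand) encodes lysyl oxidase, the enzyme that oxidises lysines of collagen and elastin so that crosslinks form. Its P12 level was 30.1, 30.8 and 33.7 in Digenic, 17.4, 19.4 and 18.4 in Pkd1-RC/RC, 15.6, 14.0 and 16.6 in Pkhd1-/- and 15.9, 16.2 and 18.6 in WT libraries. The Digenic values sat close together, with an SD of 1.90 on a mean of 31.5, and clear of the other 9. The change against WT was 0.89 ± 0.0859, or 1.86-fold (edgeR adjusted p = 4.36e-05).

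Loxl1 (ENSMUSG00000032334, chr9:58287723-58313212, minus strand) encodes the family member known for its part in keeping elastic fibres in order. At P12 it stood at 53.2, 51.9 and 53.2 in Digenic, 24.9, 24.7 and 26.7 in Pkd1-RC/RC, 23.9, 25.1 and 26.3 in Pkhd1-/- and 28.1, 31.4 and 29.5 in WT libraries. The Digenic libraries differed by little among themselves and lay above all other 33 libraries, of which WT P3 replicate 2 came nearest at 51.2. The change against WT was 0.83 ± 0.0675, or 1.77-fold (edgeR adjusted p = 1.45e-05), the smallest p of the 10 genes in this comparison. In both single mutants Loxl1 lay slightly below WT, with changes of -0.22 ± 0.0672 in Pkd1-RC/RC and -0.24 ± 0.0672 in Pkhd1-/- kidneys that did not pass the test (edgeR adjusted p = 0.415 and 0.957).

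Loxl2 (ENSMUSG00000034205, chr14:69609068-69695834, plus strand), a lysyl oxidase that crosslinks collagen IV of basement membranes, was not called. Its P12 level was 17.4, 28.5 and 20.5 in Digenic, 17.6, 22.1 and 16.3 in Pkd1-RC/RC, 21.2, 20.4 and 22.4 in Pkhd1-/- and 21.2, 25.2 and 23.1 in WT libraries, so all groups overlapped. The change against WT was -0.07 ± 0.159 (edgeR adjusted p = 0.802). A ratio within a library does not depend on library scaling: Lox over Loxl2 was 1.73, 1.08 and 1.64 in Digenic and 0.754, 0.643 and 0.805 in WT libraries of P12. Loxl1 over Loxl2 was 3.06, 1.82 and 2.60 in Digenic and 1.33, 1.25 and 1.28 in WT libraries. Neither ratio overlapped between Digenic and WT kidneys. Both ratios come from the same libraries as the calls, so they restate the changes of these genes and are no separate test. Their separation was not compared with that of other gene pairs.

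Of the provisional matrix genes, Fn1 (ENSMUSG00000026193, chr1:71585520-71653200, minus strand) encodes fibronectin, on which cells and other matrix proteins assemble. Its P12 level was 40.1, 89.4 and 66.4 in Digenic, 61.9, 66.2 and 49.9 in Pkd1-RC/RC, 73.4, 57.5 and 68.7 in Pkhd1-/- and 76.6, 76.2 and 72.2 in WT libraries. The Digenic libraries held both the lowest and the highest value of the age, and the change against WT was -0.20 ± 0.222 (edgeR adjusted p = 0.560).

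Tnc (ENSMUSG00000028364, chr4:63959785-64047015, minus strand) encodes tenascin-C, a matrix protein of growing and injured tissue. At P12 it stood at 11.6, 26.9 and 14.4 in Digenic and at 16.8, 17.9 and 17.6 in WT libraries, so Digenic values fell on both sides of WT. The change was 0.02 ± 0.243 (edgeR adjusted p = 0.971), and without Digenic replicate 2 it was -0.41 and called (edgeR adjusted p = 0.0282).

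Postn (ENSMUSG00000027750, chr3:54361109-54391034, plus strand) encodes periostin, a matricellular protein that binds collagen and integrins. At P12 its level was 24.8, 38.8 and 21.5 in Digenic and 25.3, 26.1 and 27.4 in WT libraries. The change was 0.11 ± 0.179 (edgeR adjusted p = 0.718), and the groups overlapped.

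Pdgfra (ENSMUSG00000029231, chr5:75152291-75198204, plus strand), the PDGF receptor of interstitial fibroblasts, stood at 16.6, 39.7 and 26.4 in Digenic and at 37.2, 28.7 and 35.3 in WT libraries of P12. Its change was -0.29 ± 0.243 (edgeR adjusted p = 0.425), and without Digenic replicate 2 it was -0.64 and called.

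Pdgfrb (ENSMUSG00000024620, chr18:61045150-61085061, plus strand), the PDGF receptor of pericytes and mesangial cells, was lower. Its P12 level was 18.7, 35.3 and 27.1 in Digenic, 26.4, 33.3 and 30.9 in Pkd1-RC/RC, 31.3, 29.4 and 31.1 in Pkhd1-/- and 36.8, 38.9 and 41.4 in WT libraries. All 9 mutant libraries lay below the 3 WT libraries. The changes against WT were -0.37 ± 0.172 in Pkd1-RC/RC and -0.35 ± 0.172 in Pkhd1-/- kidneys, neither called (edgeR adjusted p = 0.677 and 0.957). Digenic kidneys did not pass the test against Pkd1-RC/RC or Pkhd1-/- kidneys (edgeR adjusted p = 0.557 and 0.478). In Digenic kidneys the change was -0.53 ± 0.173, which is 1.44-fold lower (edgeR adjusted p = 0.0445), and the call was lost in 7 of 14 alternatives, with adjusted p-values from 0.000414 to 0.128. Among them were the sex term and the removal of any of the 3 WT libraries or of Digenic replicate 1 or 3. Without Digenic replicate 1 the change was -0.32 (edgeR adjusted p = 0.0747), and without the libraries with adrenal transcripts it was -1.04 and called. The ratio of Acta2 to Pdgfrb within a library of P12 was 15.6, 12.1 and 10.2 in Digenic and 4.76, 5.32 and 3.66 in WT kidneys. In both single mutants it was 5.10 to 7.16. This ratio sets a gene called higher over one called lower in the same libraries, so it restates their changes and is no separate test. Its separation was not compared with that of other gene pairs.

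The 3 Digenic libraries of P12 were not alike. Replicate 2 had the highest value of its group for Acta2, Tagln, Loxl2, Tnc, Postn, Fn1, Pdgfra and Pdgfrb, and replicate 1 the lowest for Lox, Loxl2, Tnc, Fn1, Pdgfra and Pdgfrb. Summed macrophage markers ran the other way, with 604 in replicate 1, 212 in replicate 2 and 616 in replicate 3, against 75.6 to 107 in WT kidneys. All 8 macrophage markers rose in Digenic kidneys (median 2.49) and 0 of them stood at 0 counts in any library. Markers of stroma summed to 346 to 533 in Digenic and 415 to 455 in WT kidneys, with 1 of 9 higher and 4 lower, beside 12% higher and 11% lower of all genes. Markers of pericytes, mesangium and vascular smooth muscle summed to 336 to 462 in Digenic and 386 to 473 in WT kidneys, with 3 of 12 higher and 2 lower. The renin gene Ren1 alone ran from 146 to 274 in P12 libraries, and Rgs5 from 49.8 to 82.3. These sums thus follow Ren1 more than the other markers of that list. In both lists 0 markers stood at 0 counts in a P12 library. Urothelium and ureter wall markers summed to 37.05 to 62.1 in Digenic and 31.1 to 57.8 in WT kidneys, with 1 of 7 higher. Endothelial markers fell in 6 of 8 cases, proximal tubule markers in 4 of 8 and podocyte markers in 2 of 6, with 0 higher in each list by edgeR, and 0 of 4 skeletal muscle and 0 of 6 fat markers were called, with 1 and 0 at an unadjusted p under 0.05. Among all genes 6503 of 18002 had an unadjusted p under 0.05. Of the adrenal markers 1 of 7 was called, and Cyp11b1 and Nr5a1 stood at 0 counts in 2 P12 libraries each. The part of any of these cells in the changes of the 10 genes was not tested. Without the libraries with adrenal transcripts, which left Digenic replicate 1 alone and assumed that it varies like the other groups, Acta2 stood 0.73 above WT (edgeR adjusted p = 0.0087) and Tagln 0.92, Lox 0.85 and Loxl1 0.86. In that setting Tnc (-0.57), Fn1 (-0.89) and Pdgfra (-1.01) were called lower as well. Without the libraries whose headers differ, the changes were 0.98, 1.01, 0.93 and 0.82 in that order of genes, all called. The first setting left only the Digenic library whose header differs. The second left only Digenic replicates 2 and 3, both with adrenal transcripts. No Digenic library of P12 was thus free of both doubts. Both settings were chosen after seeing the data.

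Against each single mutant, the same 4 genes were called in Digenic kidneys of P12. Against Pkd1-RC/RC, 4 of 10 were higher and 0 lower, where 19.5% of all genes were called, 10.3% higher. Acta2 changed by 0.92 ± 0.158 (edgeR adjusted p = 0.00245), Tagln by 0.87 ± 0.138, Lox by 0.77 ± 0.0858 and Loxl1 by 1.05 ± 0.0678 (edgeR adjusted p = 6.83e-06). Against Pkhd1-/-, 4 of 10 were again higher and 0 lower, where 28.2% of all genes were called, 15.5% higher. These changes were 0.98 ± 0.158 for Acta2, 1.07 ± 0.138 for Tagln, 1.03 ± 0.0862 for Lox and 1.07 ± 0.0679 for Loxl1 (edgeR adjusted p = 2.42e-06). Each of these calls held in 14 of 14 alternatives. Each comparison shares the Digenic libraries with that against WT.

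In neither single mutant did any of the 10 genes pass the test against WT. In Pkd1-RC/RC kidneys 0 of 10 genes were called by edgeR at P0, P3 and P12, where 0.0166%, 0.0443% and 0.267% of all genes were. An unadjusted p under 0.05 was found for 2, 0 and 1 of the 10. Among all genes it was found for 1880 of 18035, 805 of 18043 and 1343 of 18002. In Pkhd1-/- kidneys 0 of 10 were called at each age, where 0.0111%, 0.0166% and 0.0333% of all genes were. Here 0, 0 and 1 of the 10 had an unadjusted p under 0.05. Among all genes 849 of 18035, 396 of 18043 and 793 of 18002 had one. DESeq2 called 0 of 10 in each of these 6 comparisons. At P12 the changes of Acta2 were -0.02 ± 0.157 in Pkd1-RC/RC and -0.08 ± 0.157 in Pkhd1-/- kidneys, and those of Tagln 0.11 ± 0.137 and -0.10 ± 0.137. Lox changed by 0.12 ± 0.0854 in Pkd1-RC/RC and by -0.14 ± 0.0855 in Pkhd1-/- kidneys.

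The interaction is the Digenic change less the changes of both single mutants, all against WT on the log2 scale. At P12 it was called for 4 of 10 genes, all positive, where 8.57% of all genes were called, 5.38% positive. It was 1.29 ± 0.0954 for Loxl1 (edgeR adjusted p = 0.0001), 0.91 ± 0.121 for Lox (edgeR adjusted p = 0.00296), 0.97 ± 0.194 for Tagln (edgeR adjusted p = 0.0134) and 0.998 ± 0.222 for Acta2 (edgeR adjusted p = 0.0192). The call of Acta2 was lost in the fit of all 36 libraries and without Pkhd1-/- replicate 2 or 3, with an adjusted p of up to 0.0815. Those of Tagln, Lox and Loxl1 held in 20 of 20 alternatives. The other 6 genes had interactions between 0.04 and 0.36, and none passed the test. Without the libraries whose headers differ, that of Loxl2 was 0.64 and called (edgeR adjusted p = 0.0449), beside 0.36 with them, and Loxl2 was called higher in Digenic against Pkd1-RC/RC kidneys (0.52, edgeR adjusted p = 0.0304). At P0 and P3 the interaction was called for 0 of 10 genes by edgeR and by DESeq2, where edgeR called 0.00554% and 0% of all genes. An unadjusted p under 0.05 was found for 0 of 10 at both ages. Among all genes it was found for 1067 of 18035 and 1457 of 18043.

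**Figure D3:**
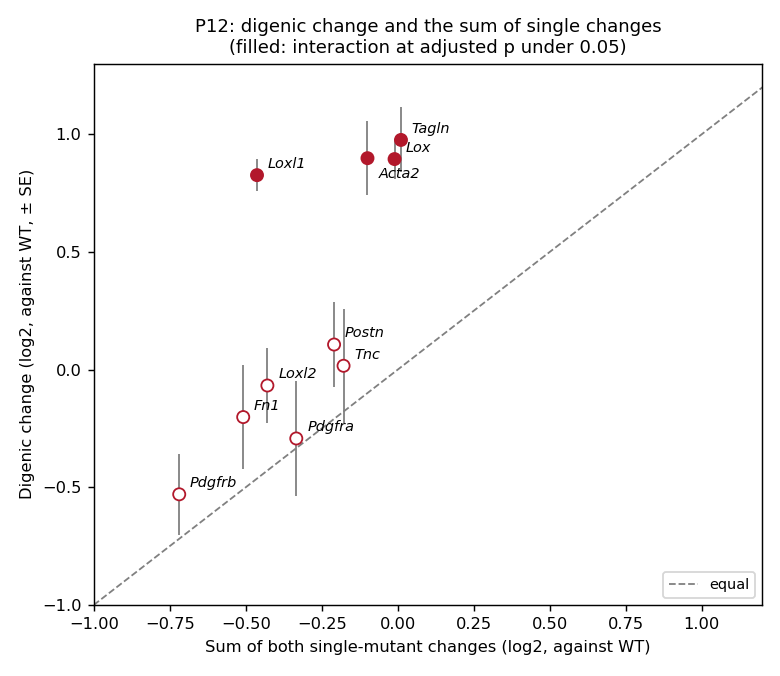
Change of each gene in Digenic kidneys of P12 against WT (log2, ± SE, y axis) plotted against the sum of the Pkd1-RC/RC and Pkhd1-/- changes (log2, x axis), with a dashed line where both are equal. Acta2, Tagln, Lox and Loxl1 (filled, interaction called) lie 0.91 to 1.29 above the line, and the other 6 genes 0.04 to 0.36 above it.

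Before P12 none of the 10 genes passed edgeR's test in Digenic against WT kidneys. At P0, 0 of 10 genes were called against WT by edgeR and by DESeq2, where 0.671% of all genes were called. An unadjusted p under 0.05 was found for 3 of the 10, and among all genes for 2950 of 18035. The median change of the 10 was -0.02, beside 0.00 over all genes. Pdgfra had the largest change, -0.62 ± 0.214 (edgeR adjusted p = 0.193), with levels of 14.2, 15.9 and 26.6 in Digenic and 34.96, 23.2 and 29.2 in WT libraries that overlapped. Tnc changed by 0.44 ± 0.176, with 18.9, 15.6 and 16.2 in Digenic and 11.9, 15.5 and 10.2 in WT libraries, which separated narrowly. Loxl1 changed by 0.36 ± 0.151 (edgeR adjusted p = 0.268), with 35.6, 38.6 and 39.8 in Digenic and 37.2, 29.0 and 23.1 in WT libraries.

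At P3, 0 of 10 genes were called against WT by edgeR, where 2.7% of all genes were called. DESeq2 called 1, Pdgfrb. An unadjusted p under 0.05 was found for 2 of the 10, and among all genes for 2847 of 18043. Pdgfrb stood at 26.9, 29.5 and 30.0 in Digenic, 33.6, 31.2 and 34.5 in Pkd1-RC/RC, 37.1, 33.05 and 33.02 in Pkhd1-/- and 36.4, 35.4 and 35.5 in WT libraries. Every Digenic library lay below all others of the age, with a change against WT of -0.32 ± 0.0820 (edgeR adjusted p = 0.0570, DESeq2 adjusted p = 0.00379). Lox stood at 22.7, 29.2 and 33.1 in Digenic and at 23.0, 20.1 and 21.4 in WT libraries, which overlapped through Digenic replicate 1. Its change was 0.39 ± 0.126 (edgeR adjusted p = 0.135), and without that replicate it was 0.54 and called (edgeR adjusted p = 0.0388). Acta2 and Tagln changed by -0.26 ± 0.210 and -0.13 ± 0.179, and without the WT library of 452 the remaining WT levels of Acta2 were 236 and 255, just below the Digenic 257 to 271. Against Pkd1-RC/RC 0 of 10 genes were called at P0 and P3, where 0.0388% and 0.46% of all genes were, and 0 and 0 by DESeq2. An unadjusted p under 0.05 was found for 0 and 1 of the 10, and among all genes for 909 of 18035 and 1875 of 18043. Against Pkhd1-/- 0 of 10 were called, where 0.244% and 3.49% of all genes were, and 0 and 1 by DESeq2. An unadjusted p under 0.05 was found for 2 and 1 of the 10, and among all genes for 2688 of 18035 and 3428 of 18043.

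Between ages in WT kidneys, the share of the 10 genes that was called was close to that of all genes, so the counts describe single genes and not the group. In WT kidneys 4 of 10 were called between P12 and P0, 1 higher and 3 lower, where 49.8% of all genes were called, 26.2% higher and 23.6% lower. Lox stood at 15.9, 16.2 and 18.6 at P12, against 58.4, 59.5 and 49.4 at P0. It fell by 1.72 on the log2 scale (SE 0.131, edgeR adjusted p = 2.88e-11), and most of the fall was present at P3 (-1.37 ± 0.130, edgeR adjusted p = 2.94e-07). Acta2 changed by -0.89 ± 0.236 (edgeR adjusted p = 0.00248), and Tagln changed by -0.64 ± 0.206 (edgeR adjusted p = 0.0114), a call lost without WT P0 replicate 1 and without the libraries with adrenal transcripts. Tnc changed by 0.47 ± 0.194 (edgeR adjusted p = 0.0439), a call kept in 5 of 13 alternatives.

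Between P3 and P0, 2 of 10 were called in WT kidneys, Lox lower and Loxl1 higher, where 24.7% of all genes were called, 12.8% higher and 11.9% lower. Loxl1 rose by 0.48 ± 0.137 at P3 (edgeR adjusted p = 0.0124), and the call was lost without WT P3 replicate 2 (0.29) or WT P0 replicate 3 (0.32) and in the fit of only the groups compared. Between P12 and P3, 4 of 10 were called, 1 higher and 3 lower, where 35.5% of all genes were called, 18.6% higher and 17% lower. Fn1 rose by 0.64 ± 0.198 (edgeR adjusted p = 0.0120), with 76.6, 76.2 and 72.2 at P12 against 42.3, 52.0 and 50.1 at P3, a call lost without WT P3 replicate 1. Acta2, Loxl1 and Lox changed by -0.82 ± 0.236, -0.48 ± 0.137 and -0.35 ± 0.128 between these ages. The calls of Acta2 and Loxl1 were lost without WT P3 replicate 2, where the changes were -0.47 and -0.30, and that of Lox without WT P3 replicate 1 or WT P12 replicate 1 or 2.

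**Figure D4:**
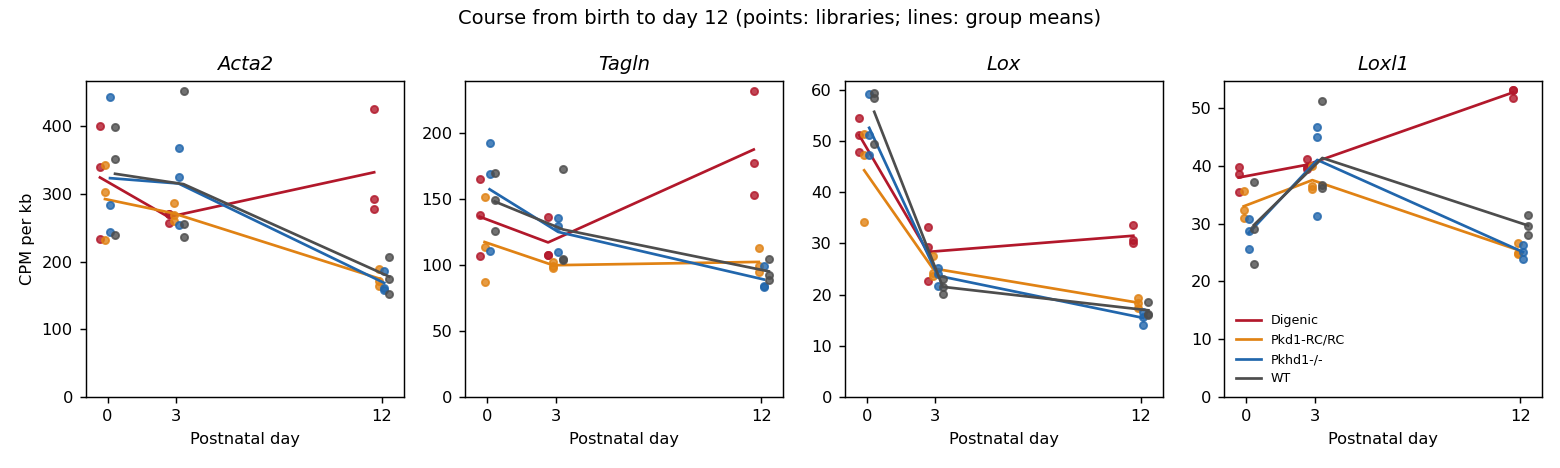
Levels of Acta2, Tagln, Lox and Loxl1 (TMM-scaled CPM per kilobase, y axis) at postnatal days 0, 3 and 12 (x axis, points set slightly apart) in each library of Digenic (red), Pkd1-RC/RC (orange), Pkhd1-/- (blue) and WT (grey) kidneys, with lines through group means. Digenic and WT libraries overlap at P0 and P3 for all 4 genes, and at P12 the Digenic means stand at 332, 187, 31.5 and 52.7 for these genes, against 178, 95.0, 16.9 and 29.7 in WT kidneys.

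The difference of Digenic minus WT kidneys was itself compared between ages. Between P12 and P3 it grew for Tagln by 1.09 ± 0.291 (edgeR adjusted p = 0.0409) and for Loxl1 by 0.87 ± 0.194 (edgeR adjusted p = 0.0140), 2 of 10 genes, where 2.33% of all genes were called, 1.34% higher. The call of Tagln was lost in 11 of 20 alternatives, among them the sex term and the removal of any of 7 libraries (WT P3 replicate 2, Digenic P3 replicate 1 or 3, WT P12 replicate 1 or 3, Digenic P12 replicate 1 or 2). That of Loxl1 was lost without WT P3 replicate 2, where the change was 0.69. Between P12 and P0 it grew for Lox by 1.02 ± 0.181 (edgeR adjusted p = 0.000526) and for Tagln by 1.10 ± 0.291 (edgeR adjusted p = 0.0171), 2 of 10 genes, where 8.79% of all genes were called, 5.22% higher. The call of Tagln was lost without WT P0 replicate 1, without Digenic P12 replicate 2 and without the libraries with adrenal transcripts (0.94, edgeR adjusted p = 0.153), and that of Lox in 0 of 20 alternatives. For Acta2 the growth was 1.14 ± 0.332 against P3 and 0.93 ± 0.332 against P0, which did not pass (edgeR adjusted p = 0.0620 and 0.0772) but did with DESeq2 and with a replicate block (adjusted p from 0.0171 to 0.0379), and also without WT P3 replicate 1 or 3 against P3 and without WT P0 replicate 3 against P0. The growth did not pass for Lox against P3 or for Loxl1 against P0. Without WT P0 replicate 3, that of Loxl1 against P0 was 0.63 and called (edgeR adjusted p = 0.0412). Between P3 and P0, 0 of 10 genes were called by edgeR and by DESeq2, where 0.693% of all genes were. An unadjusted p under 0.05 was found for 2 of the 10, and among all genes for 1822 of 18049.

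For Lox, the group means fell in 3 tiers by age, with 44.3 to 55.7 in the 4 groups of P0, 21.5 to 28.3 in those of P3 and 15.4 to 18.4 in the Pkd1-RC/RC, Pkhd1-/- and WT groups of P12. The Digenic P12 mean of 31.5 stood just above the middle tier. Its libraries (30.1 to 33.7) overlapped those of Digenic P3 (22.7 to 33.1), and lay above those of the other P3 groups (up to 27.6). For Loxl1, Digenic P12 (52.7) was the highest of the 12 groups and did not overlap the next, WT P3 (41.4). For Tagln, Digenic P12 (187) was also highest, but its libraries overlapped those of Pkhd1-/- P0 (157). Pdgfrb had its highest mean in WT P12 (39.02) and its lowest in Digenic P12 (27.1), and Pdgfra ran from 33.7 in WT P12 to 18.9 in Digenic P0. The 12 group means spanned 45.1 to 75.0 for Fn1 and 18.6 to 25.4 for Loxl2. They spanned 12.6 to 17.6 for Tnc and 14.3 to 28.4 for Postn. For Tagln, Loxl2, Tnc, Fn1 and Pdgfra all 11 pairs of neighbours in the order overlapped, and for the other 5 genes 9 or 10 did.

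The wider contractile programme was mixed at P12. Of 18 other smooth muscle contractile genes, 7 rose and 2 fell in Digenic against WT kidneys, where 12% of all tested genes rose and 11% fell, so the count that fell is close to the share of all genes. The list's median was 0.09 beside -0.01 over all genes. The 4 with the smallest p were Pln, an inhibitor of the calcium pump of muscle (-2.72 ± 0.313, edgeR adjusted p = 0.000123), the tropomyosin Tpm1 (0.59 ± 0.104), the enteric smooth muscle actin Actg2 (1.63 ± 0.301) and Csrp1, a LIM protein of smooth muscle (0.57 ± 0.113). Actg2 is also the gene that rose among the urothelium and ureter wall markers. Myh11, the smooth muscle myosin heavy chain, had a change of -0.30 ± 0.240 and did not pass (edgeR adjusted p = 0.413), a gene named after its value was seen. Of serum response factor (Srf) and its cofactors, 2 of 3 tested genes were called, both of them cofactors. Myocd changed by 1.06 ± 0.202 (edgeR adjusted p = 0.00278) and Mkl2 by 0.35 ± 0.0868 (edgeR adjusted p = 0.0126).

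Collagen-modifying and crosslinking enzymes outside the 3 lysyl oxidases were also followed. Of 15, 0 were higher and 2 lower by edgeR, the collagen lysyl hydroxylase Plod2 (-0.71 ± 0.106, edgeR adjusted p = 0.000623) and the prolyl hydroxylase subunit P4ha1 (-0.24 ± 0.0789, edgeR adjusted p = 0.0427), with a median of -0.11, and 2 of 15 is near the 11% of all genes called lower. At an unadjusted p under 0.05, 0 were higher and 3 lower, where 6503 of 18002 genes had such a p in either direction. The remaining lysyl oxidases, named after their values were seen, had changes of -0.11 ± 0.104 for Loxl3 and 0.24 ± 0.115 for Loxl4, neither called.

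Of 22 fibrillar collagens and other fibrous matrix genes, 2 rose and 1 fell, with a median of -0.01, where 12% of all genes rose and 11% fell. Col12a1, a collagen that sits on fibril surfaces, rose by 1.87 ± 0.141 (edgeR adjusted p = 1.09e-05) and Ltbp2, a microfibril protein, by 2.53 ± 0.343. The elastic fibre protein Fbln5 changed by -0.67 ± 0.150. The main collagen I and III genes, named after their values were seen, had changes of 0.01 ± 0.208 for Col1a1, -0.10 ± 0.165 for Col1a2 and -0.16 ± 0.182 for Col3a1, none called.

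Of 18 matricellular and provisional matrix genes, 3 rose and 4 fell, with a median of -0.01, beside the 12% and 11% of all genes. The 4 with the smallest p were Tgfbi (0.89 ± 0.101), a TGF-beta-induced adhesion protein, the thrombospondin Thbs2 (0.85 ± 0.123), and the small proteoglycans Lum (-1.80 ± 0.355) and Dcn (-0.51 ± 0.123). Of 9 integrins for these matrix proteins 0 rose and 2 fell by edgeR, Itga8 (-1.21 ± 0.226), the integrin chain of mesangial cells, and Itgb6 (-0.51 ± 0.139), an epithelial chain that activates latent TGF-beta, with 1 higher and 2 lower at an unadjusted p under 0.05. Among all genes 6503 of 18002 had an unadjusted p under 0.05, in either direction. Of the 4 PDGF ligands 1 was called, Pdgfa, the main ligand of Pdgfra, at -0.51 ± 0.131 (edgeR adjusted p = 0.0141). Of 11 genes of profibrotic signalling 5 rose and 1 fell, with a median of 0.36, where 12% of all genes rose and 11% fell. Those with the smallest p were Tgfb3 (0.59 ± 0.0995), the receptors Tgfbr2 (0.36 ± 0.0771) and Tgfbr1 (0.40 ± 0.0913), and the inhibitor Smad7, which fell (-0.33 ± 0.0800). At P0 edgeR called 0 genes of the 8 lists, with 5 of the 18 contractile genes higher and 0 lower at an unadjusted p under 0.05. Among all genes of that age 2950 of 18035 had such a p, in either direction.

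**Figure D5:**
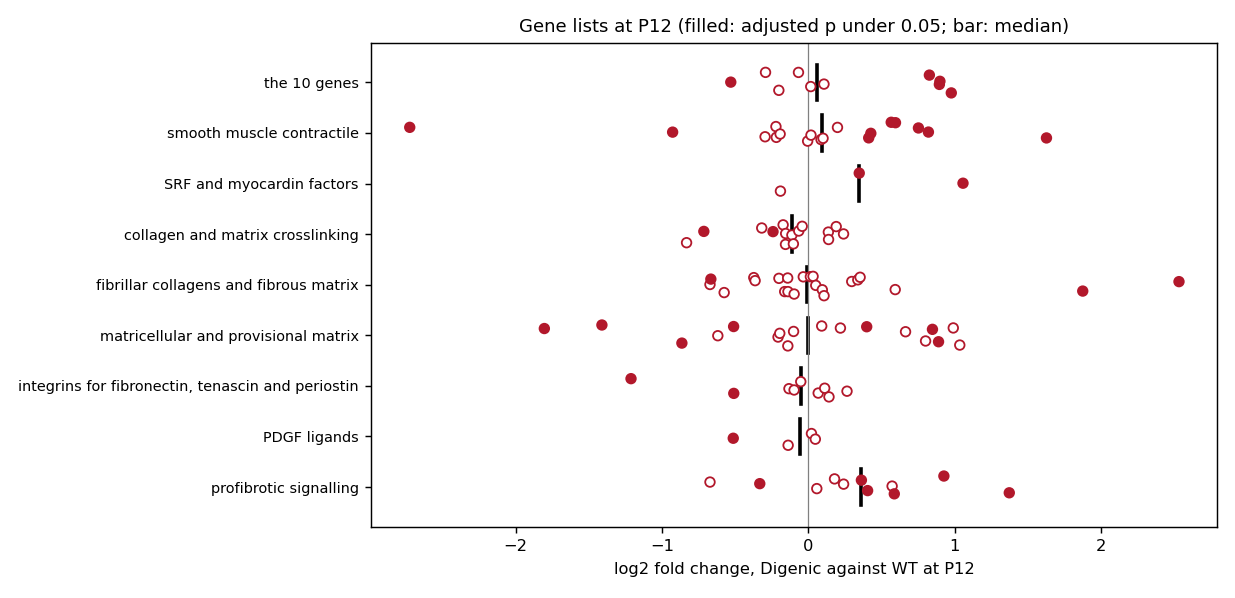
Log2 fold change in Digenic against WT kidneys of P12 (x axis) for every tested gene of the 10 and of 8 related lists (rows, points set apart to be seen), filled where the adjusted p was under 0.05, with a bar at each list's median. Filled points lie on both sides of 0 for the 10 genes and for the contractile, fibrous matrix, matricellular and profibrotic lists, and the list medians run from -0.11 for collagen and matrix crosslinking to 0.36 for profibrotic signalling.

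Genes whose levels ran most like those of each of the 10 across the 36 libraries, once the mean of each age was taken off, are given as a description. These libraries share RNA, sequencing depth and genotype effects. For Acta2 they were Lgals1 (r = 0.839), Cnn1 (0.830) and Actg2 (0.821), and for Tagln Pdlim7 (0.830), Csrp1 (0.816) and S100a6 (0.814). For Lox they were Chp1 (0.850), Ctsd (0.832) and Hsd17b2 (0.824), and for Loxl1 Arhgap1 (0.858), Smpdl3b (0.855) and Cyb5r3 (0.852). None of the 3 genes nearest to Lox or Loxl1 is on the contractile or matrix lists. Loxl2 ran most like Cdh5 (0.730), Bgn (0.721) and Col6a3 (0.714), and Fn1 like Nid1 (0.844), Ltbp4 (0.835) and Cdh5 (0.810). Tnc ran most like Cspg4 (0.764), Notch3 (0.692) and Ntn3 (0.674), and Postn like Mfap5 (0.837), Galnt16 (0.794) and Dcn (0.784). For Pdgfra they were Arhgap28 (0.830), Colec12 (0.826) and Kcnf1 (0.818), and for Pdgfrb Ehd3 (0.851), Atp1b2 (0.837) and Tpst1 (0.810). Among the 45 pairs of the 10 genes, Acta2 with Tagln was highest (0.918), then Fn1 with Loxl2 (0.804) and Acta2 with Loxl1 (0.750), and Lox with Pdgfrb was lowest (-0.344).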

How the data were processed

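Total RNA of whole kidneys was sequenced as 150 bp paired-end reads, per the labels' protocols. The submitters' processing notes and design text name mm10, MAP-RSeq 2.1.0, TopHat2, Bowtie, featureCounts and edgeR; the sources used here do not give strandedness, so reads of overlapping antisense genes could not be told apart. Raw read counts per gene and library stand in the deposited table, per the file headers, and fed every test; its 36 normalized columns were not used.

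Counts were tested with edgeR 4.0.16 (limma 3.58.1, R 4.3.3): filterByExpr, TMM scaling, robust quasi-likelihood fit, Benjamini-Hochberg adjustment over all tested genes, called under 0.05. The 12 libraries of an age were fitted together for comparisons within it (18035, 18043 and 18002 genes at P0, P3 and P12), and all 36 (18049 genes) for those between ages, 24 comparisons in all. Groups were taken from the labels. The P12 fit was also run on simulated counts with a set spread between libraries, which checks the code and not these results. Levels are TMM-scaled CPM divided by the deposited gene length in kilobases. Alternatives were DESeq2 1.42.0, RLE factors, no filter, a replicate block, a sex term, other sets of libraries in the fit, and each library left out.

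The 10 genes, the 8 lists and 10 marker lists were chosen with earlier results of these data known. The text names all 10 genes, up to 4 called members of each list with the smallest adjusted p in Digenic against WT, and the 3 genes with a mean level of at least 1 most like each of the 10. Symbols are the table's (Mkl2 for Mrtfb); Mrtfa was not used here. For 1 listed gene named by this rule the result is not reported here. Sequences are from RefSeq (GRCm38.p6).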

Additional observations from a re-analysis of the deposited data

Results flagged for a closer look

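Effects that differed between genotypes by a test of the difference itself were the P12 interactions of Acta2 (0.998), Tagln (0.97), Lox (0.91) and Loxl1 (1.29), where the Digenic change exceeded the sum of both single-mutant changes on the log2 scale. Effects that differed between ages by such a test were the Digenic minus WT differences of Tagln (1.09) and Loxl1 (0.87), larger at P12 than at P3, and those of Tagln (1.10) and Lox (1.02), larger at P12 than at P0. The Acta2 interaction and the age differences of Tagln and Loxl1 were not called in every alternative, as given above. With 3 libraries per group, no group was tested for a library far from the others.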

How the results depend on the processing

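The number of the 10 genes called kept within 1.5 times its main value in all but the following. DESeq2 called 1 at P3 in Digenic against WT and 1 in Digenic against Pkhd1-/- kidneys, where edgeR called 0. In the fit of only the groups compared, 1 was called for WT at P3 against P0 and 1 for the change of Digenic minus WT between P12 and P3, where the main values were 2 and 2. For that change the sex term and, chosen after seeing the data, the removal of the libraries whose headers differ and of those with adrenal transcripts gave 1 each. Without the libraries with adrenal transcripts, 8 were called in Digenic against WT at P12 (main 5), 7 against Pkd1-RC/RC (main 4), 8 against Pkhd1-/- (main 4), and 4 for the change between P12 and P0 (main 2), where Tagln was lost. In that setting and without Digenic P12 replicate 2, Tnc changed direction: its change against WT ran from -0.41 to 0.24 as each library was left out, lowest without that replicate, and was -0.57 against WT, -0.51 against Pkd1-RC/RC and -0.52 against Pkhd1-/- without the adrenal libraries. The cause was not tested; the setting leaves Digenic replicate 1 alone at P12.

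With each library left out, the count ran from 4 to 7 for Digenic against WT at P12, 4 to 4 against Pkd1-RC/RC, 4 to 5 against Pkhd1-/-, 3 to 4 for the interaction, 0 to 1 for Digenic against WT at P3, 1 to 2 for WT at P3 against P0, 3 to 5 at P12 against P3, 2 to 5 at P12 against P0, and 0 to 3 and 1 to 4 for the changes of Digenic minus WT between P12 and P3 and between P12 and P0. The replicate block kept all 24 counts within 1.5 times, with 5 called in Digenic against WT at P12. Replicate numbers did not pair the libraries: same-numbered libraries correlated between -0.558 and 0.505, and 5, 8 and 13 of 36 comparisons at P0, P3 and P12 were best with their own number. Without the TMM factor, 15 of 120 group levels moved by over 1 SD. Each of these genes had at least 4282 counts in every library, which keeps counting error low.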

Other observations

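In Digenic against Pkd1-RC/RC kidneys of P12, 8 of 22 fibrillar collagens and other fibrous matrix genes were higher and 0 lower by edgeR (median 0.31), where 19.5% of all genes were called, 10.3% higher. Against WT 2 were higher and 1 lower, where 12% of all genes were higher and 11% lower. The same list had a median of -0.34 in Pkd1-RC/RC and -0.15 in Pkhd1-/- kidneys against WT. Smooth muscle contractile genes were higher in 7 and lower in 1 of 18 cases against each single mutant (medians 0.29 and 0.28), and profibrotic signalling genes were higher in 4 of 11 cases against Pkd1-RC/RC and in 6 of 11 against Pkhd1-/- kidneys, with 0 lower. Of all genes 28.2% were called against Pkhd1-/- kidneys, 15.5% higher. These comparisons share the Digenic libraries, and the lists were chosen with earlier results of these data known.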
